A study of Mus musculus with 6 samples.

Results

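The Rab GTPases, the largest branch of the Ras superfamily of small GTP-binding proteins, were measured in a mouse tumour cell line that lacks MAX, with and without MAX restored. Members were the genes whose symbol is Rab followed by a number, with at most a letter and a further digit, which gave 59 of 24391 genes in the count tables. Regulators and effectors with longer names, such as Rab3gap1 or Rab11fip1, fall outside that rule and are described separately. The line, mRPMaxKO, came from a lung tumour of a mouse with the genotype RPMax-/- on a mixed 129/SvJ and C57BL/6 background. RP in such names commonly stands for loss of Rb1 and Trp53, a genotype that models small cell lung cancer, a neuroendocrine tumour. The 6 RNA-seq libraries formed 2 groups of 3, MAX restored and control. The labels describe all 6 alike, as a polyclonal population at under 20 passages that was transduced with a doxycycline-inducible lentiviral vector and selected with puromycin. MAX is the common partner of the MYC and MXD transcription factors. The protocol gives 4 days of doxycycline without saying whether the control cells received it or carried an empty vector, so either could differ between the groups besides MAX. Nothing in the labels says whether the 3 libraries of a group were separate cultures, so each p-value reflects the variation among these libraries only, which may be technical.

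Rab proteins switch between a GTP-bound form on membranes, where they recruit effectors, and a GDP-bound form that the GDP dissociation inhibitor can extract into the cytosol. Exchange factors load GTP, GTPase-activating proteins trigger its hydrolysis, and lipid tails at the C terminus hold the protein to its membrane. Each Rab marks certain compartments, so the family is described by where its members act. In neuroendocrine cells the RAB3 and RAB27 proteins are best known for bringing hormone-containing dense-core granules to the plasma membrane and preparing them for release.

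Each MAX restored library held between 10253303 and 11925909 counts and each control between 10046899 and 10425210, and Rab genes took between 0.472% and 0.475% of counts with MAX restored, against 0.441% to 0.455% in the controls. Max had 1343, 1332 and 1306 CPM (counts relative to the scaled library size) in MAX restored libraries 1, 2 and 3, against 62.9, 66.3 and 61.4 CPM in controls 1, 2 and 3 (log2 fold change 4.38, SE 0.04). Which part of Max the knockout removes is not given in the sources used here, so the reads in the controls check only that Max was much higher with MAX restored. Summed counts of 8 neuroendocrine markers lay between 8305 and 8603 CPM with MAX restored and between 8420 and 8663 CPM in the controls, although Neurod1 had no count in any library. Of these, Chga (log2 0.40), Insm1, Calca and Syp rose. Markers of other cell types stayed at summed levels under 7 CPM in every library. Of 7 immune markers the sum was 2.60 to 3.42 CPM with MAX restored and 1.49 to 2.95 CPM in the controls (Cd3e at 0), of 7 fibroblast markers 1.93 to 3.32 and 1.67 to 1.88 CPM (Lum at 0, Pdgfrb up by log2 1.79), and of 5 endothelial markers 1.597 to 2.05 and 1.05 to 1.09 CPM (Cdh5 at 0). Their part in the results was not tested. Control 1 stood apart from the other controls, with a chi-square per degree of freedom of 8.91 against control 2 and 10.2 against control 3, where controls 2 and 3 differed by 1.505 and MAX restored pairs by 1.24 to 1.46. The ribosomal RNA gene Rn45s took 0.996% of its counts, against 0.187% and 0.109% in controls 2 and 3 and 0.121% to 0.160% with MAX restored. Without Rn45s the values for control 1 were 4.25 and 4.37, that of controls 2 and 3 was 1.34 and those of MAX restored pairs 1.19 to 1.46. Without control 1 the Rab counts given next were again 19 higher and 10 lower, and the count of 2-fold rises was 5 where it was 6 with it. The totals were equal although 2 calls (Rab6a and Rab7b) were lost and 2 (Rab11a and Rab23) gained.

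Of the 59 Rab genes 51 had enough counts to be tested, and 19 were higher and 10 lower with MAX restored at an adjusted p under 0.05 in edgeR's quasi-likelihood test. That is 56.9% of the tested members, where 63.5% of all 12664 tested genes passed, 31.2% higher and 32.3% lower, so the share called lay slightly under that of the transcriptome. Most of the called changes were small: 20 of 29 had an absolute log2 fold change under 0.5. The larger ones among the tested members were all rises. With a change of at least 2-fold also required, 6 members were higher, namely Rab32, Rab36, Rab3a, Rab40b, Rab19 and Rab37, where 6.15% of all tested genes were, and 0 were lower, where 2.38% were (8.53% in either direction). The count of 0 was the same in edgeR at an unadjusted p under 0.05, in DESeq2 and in limma voom. The 6 include Rab32, which had enough counts only through the MAX restored libraries, so it could be counted only as a rise. Rab38, with 3 summed counts with MAX restored against 11 in the controls, was too scarce to be tested. In 33 of 51 members the libraries of the groups did not overlap in CPM (67.1% of all tested genes). The median log2 fold change was 0.03 over the tested Rab genes and 0.00 over all tested genes. Libraries of bulk RNA cannot tell fewer cells that express a gene from less RNA per cell.

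**Figure D1:**
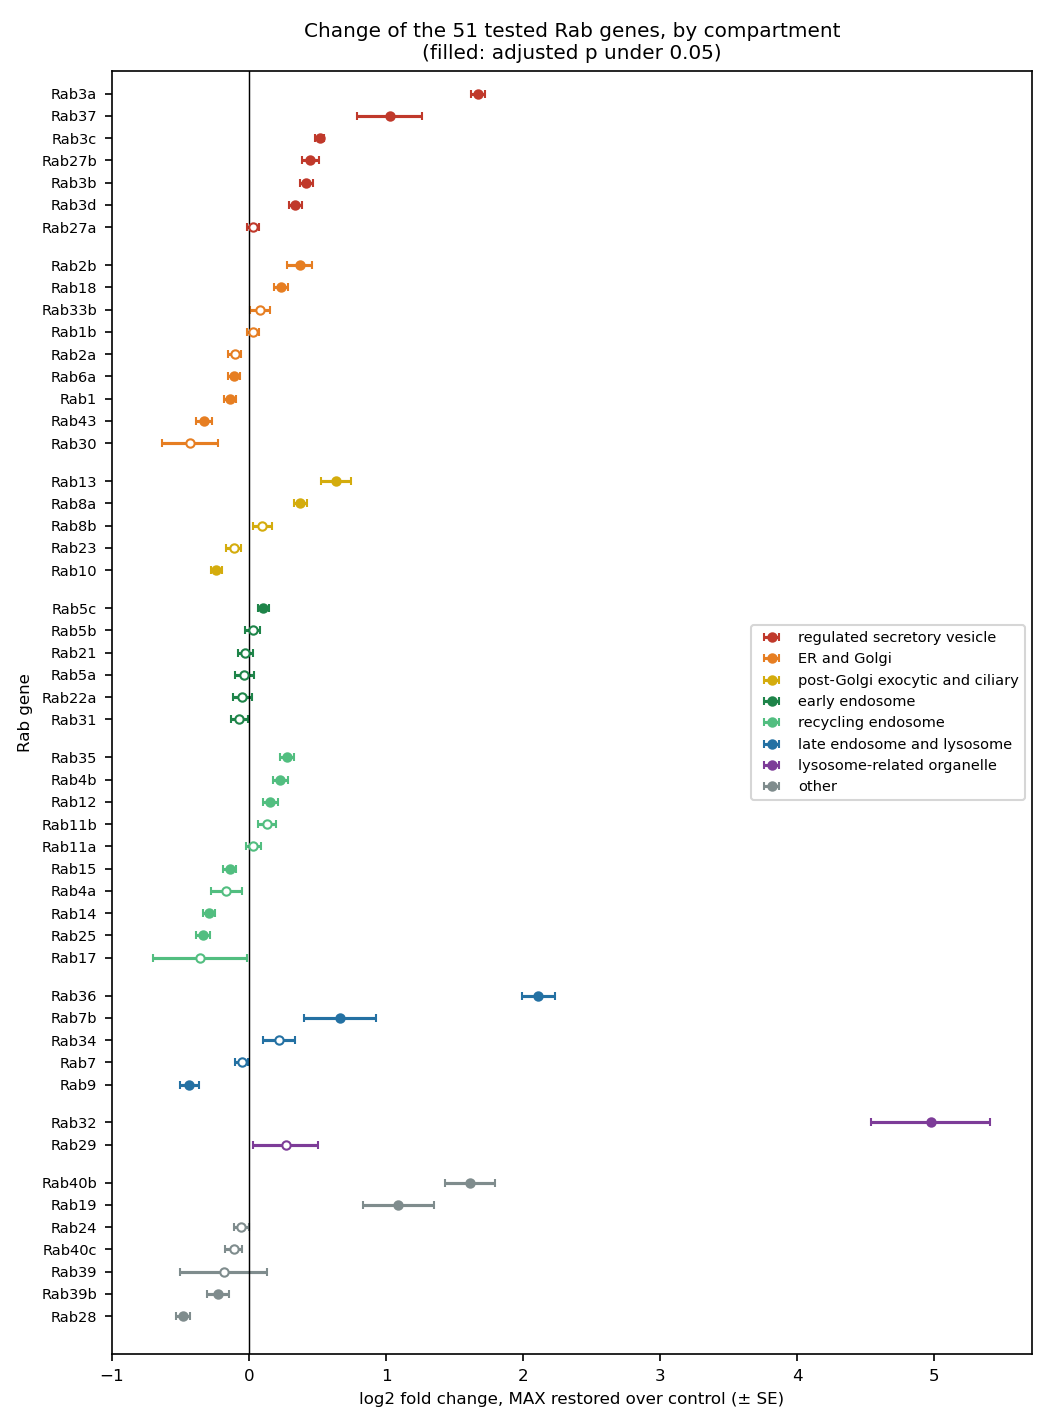
Log2 fold change of MAX restored over control (x axis, with its standard error) for the 51 tested Rab genes (y axis), grouped and coloured by compartment, with filled points for genes past an adjusted p of 0.05. The regulated secretory Rabs lie to the right of 0, the early endosomal Rabs lie between -0.07 and 0.10, and Rab32, at 4.97, lies furthest out. Rab32 was tested only through the MAX restored libraries.

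Levels were compared between genes as CPM per kilobase of exon (RPKM). Rab2a, which acts between the endoplasmic reticulum (ER) and the Golgi, was the highest, with 132, 127 and 128 RPKM in MAX restored libraries 1, 2 and 3, against 151, 133 and 133 RPKM in controls 1, 2 and 3. Its 129 ± 2.32 RPKM with MAX restored and 139 ± 10.3 RPKM in the controls (SD, n = 3 each) were followed by Rab5c, at 123 ± 1.12 RPKM with MAX restored and 114 ± 3.89 RPKM in the controls. In the MAX restored libraries the next in order were Rab3a at 106, Rab1b at 99.5 ± 1.65, Rab25 at 82.1 and Rab1 at 81.2 RPKM, with the last pair within the spread of their libraries. In the controls Rab25 was at position 3, with 104 ± 5.88 RPKM, with Rab1b at 97.5 ± 3.75, within the spread of the libraries, and Rab3a was at position 20. The 5 highest by mean over all libraries (Rab2a, Rab5c, Rab1b, Rab25 and Rab1) held 28.9 ± 0.154% with MAX restored and 32.0 ± 0.398% in the controls of the summed Rab RPKM (SD, n = 3 each).

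Rabs of regulated secretory vesicles were higher with MAX restored in 6 of 7 tested members, and all 7 estimates were above 0 (median log2 fold change 0.45). For this count and those of the compartments below, the shares of all tested genes were 31.2% higher and 32.3% lower. Rab3a, the main Rab of synaptic vesicles and dense-core granules, had 106, 109.8 and 102 RPKM in MAX restored libraries 1, 2 and 3, against 32.9, 33.7 and 33.1 RPKM in controls 1, 2 and 3. The groups were far apart, and each group's libraries lay close together. The rise was 3.19-fold (log2 fold change 1.67, SE 0.05, adjusted p = 5.22e-16 in edgeR's quasi-likelihood test). Rab3a lies on chromosome 8 of mm9, at chr8:73278578-73282585 on the plus strand, and 38 of its 1451 exonic bases overlap Mpv17l2 on the opposite strand, which unstranded counting cannot separate. Mpv17l2 held 554, 544 and 450 counts with MAX restored, against 580, 611 and 583 in the controls. The other RAB3 genes rose by less than 2-fold. Rab3c, a relative found on the same vesicles, had 60.5, 61.3 and 62.9 RPKM with MAX restored, against 44.98, 42.2 and 42.1 RPKM in the controls, again without overlap (log2 fold change 0.51, SE 0.04, adjusted p = 1.65e-10; chr13:110844396-111070414, minus strand). For Rab3b, another neuronal and endocrine form, the values were 35.9, 36.9 and 35.6 RPKM with MAX restored, against 27.1, 27.9 and 26.0 RPKM in the controls (log2 fold change 0.42, SE 0.05, adjusted p = 2.09e-07). Rab3d, known from zymogen and other secretory granules of exocrine cells, had 29.6, 27.4 and 28.9 RPKM with MAX restored, against 22.3, 21.8 and 23.8 RPKM in the controls (log2 fold change 0.34, SE 0.05, adjusted p = 6.90e-06). All 4 RAB3 genes therefore stood higher in every MAX restored library than in any control.

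The RAB3 genes did not rise in proportion. Of their summed RPKM, Rab3a held 45.7, 46.6 and 44.4% in MAX restored libraries 1, 2 and 3, against 25.8, 26.8 and 26.5% in controls 1, 2 and 3. Rab3c, the most abundant of the 4 in the controls, held 26.5 ± 0.801% with MAX restored and 34.2 ± 0.978% in the controls, Rab3b 15.6 ± 0.111% with MAX restored and 21.4 ± 0.733% in the controls, and Rab3d 12.3 ± 0.608% with MAX restored and 17.98 ± 0.954% in the controls (SD, n = 3 each). The order of levels was thus Rab3a, Rab3c, Rab3b and Rab3d with MAX restored, and Rab3c, Rab3a, Rab3b and Rab3d in the controls, with no overlap between neighbours in either order.

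The RAB27 genes, whose products dock granules at the plasma membrane and, for RAB27A, also move melanosomes, are given side by side, and the difference between them was not tested. Rab27b had 21.8, 21.7 and 23.1 RPKM with MAX restored, against 17.9, 16.5 and 14.4 RPKM in the controls, without overlap (log2 fold change 0.45, SE 0.06, adjusted p = 2.83e-06). Rab27a, the more abundant of the pair, had 50.01, 49.5 and 47.8 RPKM with MAX restored, against 47.9, 49.7 and 46.7 RPKM in the controls, and these overlapped (log2 fold change 0.03, SE 0.05, adjusted p = 0.586). Rab37, found on granules of mast cells and islet cells, was scarce at 41, 36 and 32 counts with MAX restored, against 14, 22 and 13 counts in the controls, and rose 2.04-fold (log2 fold change 1.03, SE 0.24, adjusted p = 0.000818). These counts did not overlap. Rab26, which marks secretory granules and synaptic vesicles, had too few counts to be tested, with 5, 10 and 7 counts with MAX restored, against 1, 0 and 1 counts in the controls. The ratio of its summed counts, 22 against 2, was 10.1 after scaling for depth (95% exact binomial interval, counting error only, 2.49 to 88.8).

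**Figure D2:**
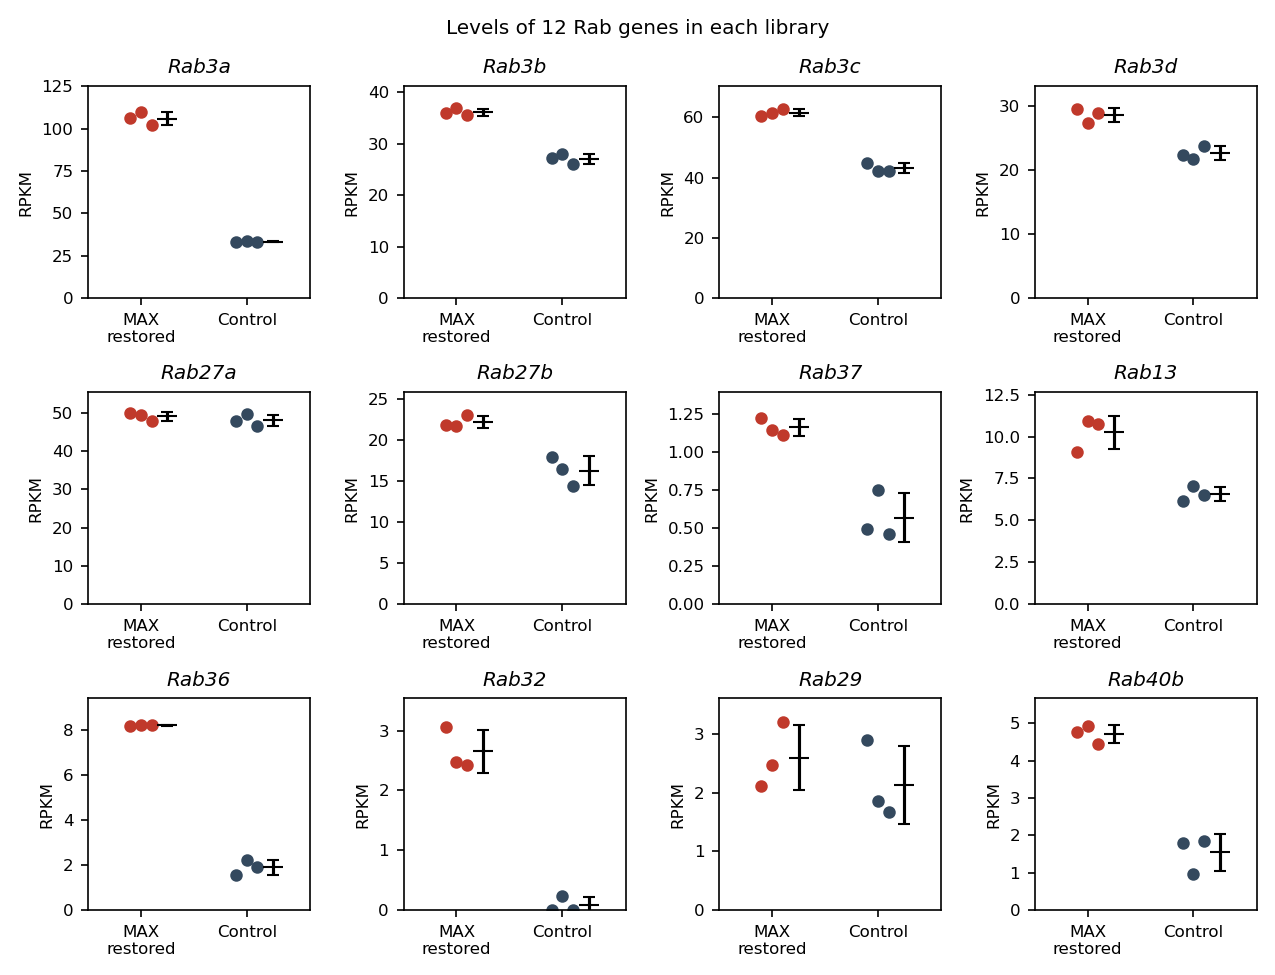
Levels of 12 Rab genes in RPKM (y axes, each starting at 0) in the 3 MAX restored and the 3 control libraries (points), with the mean and SD of each group in black. Rab3a, Rab36, Rab32 and Rab40b are separated most widely, while Rab27a and Rab29 overlap.

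Rabs of the ER and Golgi moved little and in both directions, with 2 of 9 tested members higher and 3 lower (median log2 fold change -0.11, range -0.43 to 0.37). Rab2b had 12.9, 12.6 and 12.9 RPKM with MAX restored, against 8.11, 11.2 and 10.3 RPKM in the controls (log2 fold change 0.37, SE 0.09, adjusted p = 0.00124), and control 1 was the lowest of the controls. Rab18, known for ER tubules and lipid droplets, had 50.7, 50.3 and 52.6 RPKM with MAX restored, against 46.3, 40.4 and 43.5 RPKM in the controls (log2 fold change 0.24, SE 0.05, adjusted p = 0.000411). Both rose without overlap between the groups. Rab43, a Golgi Rab, had 10.1, 11.5 and 10.5 RPKM with MAX restored, against 12.8, 13.6 and 13.8 RPKM in the controls, and fell (log2 fold change -0.33, SE 0.06, adjusted p = 5.88e-05). Rab1 (also called Rab1a), which drives ER-to-Golgi transport, had 82.1, 78.4 and 83.2 RPKM with MAX restored, against 92.5, 86.5 and 89.4 RPKM in the controls and fell by less (log2 fold change -0.14, SE 0.04, adjusted p = 0.00807), a call lost without MAX restored library 2 (adjusted p = 0.0832). Its close paralog Rab1b, at 99.5 ± 1.65 RPKM with MAX restored and 97.5 ± 3.75 RPKM in the controls (SD, n = 3 each), did not pass (log2 0.03, SE 0.04). Rab6a, a Golgi Rab of retrograde transport, also fell (log2 -0.11, adjusted p = 0.0402), a call lost under 6 of 14 other ways of scaling, filtering, testing or leaving out a library, over which the adjusted p ran from 0.0246 to 0.194. Those 6 left out any 1 of the MAX restored libraries or control 1, or used upper quartile scaling or DESeq2. Rab2a (log2 -0.11, adjusted p = 0.0547) passed in 5 of the 14, among them without control 2 or control 3, with a range of 0.017 to 0.224. Rab30 (-0.43, on 87 against 108 counts) and Rab33b (0.08) did not pass. The counting set no option to keep reads that map to several places, so levels of genes with near-identical paralogs or pseudogenes are uncertain.

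Among the post-Golgi Rabs, which carry vesicles to the plasma membrane and the primary cilium, 2 of 5 rose and 1 fell. Rab8a had 70.5, 69.1 and 70.9 RPKM with MAX restored, against 54.7, 53.5 and 54.2 RPKM in the controls, with narrow and separate groups (log2 fold change 0.38, SE 0.05, adjusted p = 6.36e-07). Rab13, known from tight junctions, had 9.09, 10.9 and 10.8 RPKM with MAX restored, against 6.14, 7.03 and 6.54 RPKM in the controls (log2 fold change 0.64, SE 0.11, adjusted p = 3.95e-05). Rab10, which acts in exocytosis and the delivery of glucose transporters, had 62.6, 61.3 and 62.8 RPKM with MAX restored, against 74.5, 70.1 and 75.8 RPKM in the controls, lower in every MAX restored library (log2 fold change -0.24, SE 0.04, adjusted p = 5.46e-05). Rab8b (log2 0.10) and Rab23, a regulator of Hedgehog signalling at the cilium (-0.11), did not pass, though Rab23 did without control 1 (adjusted p = 0.013).

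The early endosomal Rabs changed least of the compartments with more than 2 tested genes, with a median absolute log2 fold change of 0.04 over 6 tested genes, where all tested genes had 0.26. Rab5c, the main early endosomal Rab by level and a member of the RAB5 group that drives endosome fusion, had 124, 122 and 122 RPKM with MAX restored, against 112, 119 and 112 RPKM in the controls. It was the only 1 of the 6 to pass (log2 fold change 0.10, SE 0.04, adjusted p = 0.0316), and that call was lost under 6 of the 14 other settings (adjusted p from 0.00959 to 0.118), among them without any 1 of the MAX restored libraries or without control 3. Rab31 had 13.7, 12.8 and 13.5 RPKM with MAX restored, against 13.1, 15.1 and 13.7 RPKM in the controls, and the groups overlapped (log2 fold change -0.07, SE 0.06, adjusted p = 0.336). Rab22a had 30.2, 34.2 and 29.3 RPKM with MAX restored, against 29.4, 36.1 and 31.2 RPKM in the controls, which also overlapped (log2 fold change -0.05, SE 0.07, adjusted p = 0.577). The other 3 early endosomal genes also stayed short of the threshold. Rab21 (log2 -0.03, SE 0.05), Rab5a (-0.03, SE 0.07) and Rab5b (0.03, SE 0.05) lay close to 0. Within the RAB5 genes the shares of summed RPKM were alike in both groups, with Rab5c at 74.5 ± 0.524% with MAX restored and 73.0 ± 1.48% in the controls (SD, n = 3 each).

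Rabs of recycling endosomes split evenly, with 3 of 10 higher and 3 lower, near the shares of all tested genes (31.2% and 32.3%). Rab25, an epithelial member of the RAB11 group, had 82.2, 84.9 and 79.3 RPKM with MAX restored, against 105, 109 and 97.5 RPKM in the controls, lower in every MAX restored library (log2 fold change -0.34, SE 0.05, adjusted p = 8.69e-06). Rab14, which acts between early endosomes and the Golgi, had 59.8, 59.0 and 59.6 RPKM with MAX restored, against 78.0, 69.6 and 70.9 RPKM in the controls (log2 fold change -0.29, SE 0.05, adjusted p = 2.00e-05). Rab35, a Rab of fast recycling and cytokinesis, went the other way with 41.4, 40.8 and 39.1 RPKM with MAX restored, against 31.6, 34.8 and 33.7 RPKM in the controls (log2 fold change 0.28, SE 0.05, adjusted p = 6.81e-05). None of these groups overlapped. Rab4b also rose (log2 0.23) as did Rab12 (0.16), while Rab15 fell (-0.14). The calls for Rab12 and Rab15 were lost under 4 and 2 of the 14 other settings, with adjusted p up to 0.108 and 0.0706. For Rab12 these were DESeq2 and the fits without MAX restored library 1 or 2 or control 3, and for Rab15 those without MAX restored library 1 or 3. Rab11a (0.03), Rab11b (0.13), Rab4a (-0.17) and Rab17 (-0.36, on 33 and 39 counts in all) did not pass; Rab11a did once control 1 was left out (log2 0.10, adjusted p = 0.0164, the lowest of a range up to 0.89).

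Late endosomal and lysosomal Rabs held both a large rise and a fall, with 2 of 5 tested members higher and 1 lower. Rab36, which like RAB34 binds the lysosomal adaptor RILP and helps to position late endosomes and lysosomes, had 8.21, 8.24 and 8.24 RPKM in MAX restored libraries 1, 2 and 3, against 1.54, 2.23 and 1.93 RPKM in controls 1, 2 and 3. The groups lay well apart, and the rise was 4.32-fold (log2 fold change 2.11, SE 0.12, adjusted p = 1.01e-11; chr10:74499834-74516845, plus strand). Rab9, which returns mannose 6-phosphate receptors from late endosomes to the Golgi, had 17.8, 18.6 and 17.7 RPKM with MAX restored, against 24.8, 23.2 and 25.2 RPKM in the controls (log2 fold change -0.44, SE 0.07, adjusted p = 1.94e-05). Rab7b was scarce, at 22, 23 and 24 counts with MAX restored, against 12, 14 and 14 counts in the controls, and rose (log2 0.66, SE 0.26, adjusted p = 0.0335), a call lost under 6 of 14 other settings (adjusted p from 0.028 to 0.197). It was lost in DESeq2 and without MAX restored library 2 or 3 or any 1 of the controls. The main lysosomal Rab, Rab7, stayed within its spread at 60.1 ± 2.10 RPKM with MAX restored and 62.3 ± 2.54 RPKM in the controls (SD, n = 3 each; log2 -0.05, SE 0.05, adjusted p = 0.356). Rab34 did not pass (log2 0.22, SE 0.12), though its groups did not overlap.

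Rab32, Rab38 and Rab29 (also called Rab7l1) form a subgroup known for lysosome-related organelles, such as melanosomes and platelet granules, and all 3 were scarce here. Rab32 had 75, 57 and 51 counts with MAX restored, against 0, 5 and 0 counts in the controls. Every MAX restored library held it, and the 5 control reads all lay in control 2. The ratio of summed counts, 183 against 5, was 33.7 after scaling for depth, with a 95% exact binomial interval of 14.2 to 105, for counting error only. The fitted change was 4.97 (SE 0.43, adjusted p = 5.80e-09), and without control 2, where both other controls are at 0, the fit gave 8.88, a value that depends on the prior count and is no bound. Rab32 passed the filter on low counts, 0.967 CPM in at least 3 libraries, only through the MAX restored libraries, so it could enter the test only as a difference. Its level stayed low, at 2.66 ± 0.357 RPKM with MAX restored and 0.0778 ± 0.135 RPKM in the controls (SD, n = 3 each; chr10:10264837-10278005, minus strand). Rab29, whose product recruits the kinase LRRK2 to membranes, had 30, 33 and 39 counts with MAX restored, against 35, 23 and 20 counts in the controls, and the groups overlapped (log2 fold change 0.27, SE 0.24, adjusted p = 0.345). Rab38, which overlaps RAB32 in melanosome biogenesis, was not tested, with 1, 1 and 1 counts with MAX restored, against 3, 3 and 5 counts in the controls. Its ratio of 3 to 11 summed counts was 0.251 (counting interval 0.0449 to 0.950). Of 7 pigment cell markers, measured because RAB32 and RAB38 are best known from melanocytes, the summed level was 2.05 to 4.46 CPM with MAX restored and 4.06 to 6.42 CPM in the controls. Among these markers Mitf was called lower with MAX restored, at 65 against 105 summed counts, though its libraries overlapped (log2 -0.81, SE 0.28). Tyr and Slc45a2 had no count, and the part of such cells in the Rab32 and Rab38 values was not tested.

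Of the members outside these compartments, 2 of 7 tested rose and 2 fell. Rab40b, which works with a cullin ubiquitin ligase through its SOCS box, had 4.78, 4.93 and 4.45 RPKM with MAX restored, against 1.796, 0.977 and 1.86 RPKM in the controls, and rose 3.06-fold (log2 fold change 1.61, SE 0.18, adjusted p = 2.05e-07). Its relative Rab40c, at 16.3 ± 0.597 RPKM with MAX restored and 17.7 ± 1.20 RPKM in the controls (SD, n = 3 each), did not pass (log2 -0.11, SE 0.06), except without control 3 (adjusted p = 0.0473). Rab19 had 37, 31 and 32 counts with MAX restored, against 19, 15 and 9 counts in the controls, and rose 2.13-fold (log2 fold change 1.09, SE 0.26, adjusted p = 0.00102), with 2 of the 3 controls at or above the filter's cut. Rab28, associated with cilia and photoreceptors, had 43.0, 40.7 and 38.2 RPKM with MAX restored, against 57.9, 55.0 and 57.5 RPKM in the controls, the deepest of the called falls in the family (log2 fold change -0.48, SE 0.05, adjusted p = 9.57e-08). Rab39b, a neuronal Rab, fell by 0.23 on the log2 scale (adjusted p = 0.0196), a call lost under 4 of 14 other settings (DESeq2, and without MAX restored library 2 or 3 or control 3; adjusted p from 0.00879 to 0.0966). Rab24 and Rab39 did not pass. Rab19, Rab32, Rab36, Rab37 and Rab40b, the members up at least 2-fold other than Rab3a, each had control means under 2 RPKM. Without control 3 the count of such rises was 4, since Rab19 and Rab37 then fell short of it. Besides Rab26 and Rab38, the untested members were Rab9b and Rab20, with no count in any library, Rab44 and Rab42, with 1 and 2 counts in all, Rab6b, with 3, and Rab33a, with 23 against 15.

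Set side by side, the secretory Rabs (regulated, ER and Golgi, and post-Golgi) were higher in 10 and lower in 4 of 21 tested, the endosomal Rabs (early and recycling) higher in 4 and lower in 3 of 16, and the lysosome-related Rabs (late endosomal, lysosomal and lysosome-related organelle) higher in 3 and lower in 1 of 7. The medians were 0.10, -0.03 and 0.27 on the log2 scale, and the shares called in either direction 66.7%, 43.8% and 57.1%, beside 63.5% of all tested genes. Of all tested genes 31.2% were higher and 32.3% lower. No test was made between the classes. The lysosome-related rises and median include Rab32, whose entry into the test fixed its direction. They also include Rab7b, whose call was lost under 6 of 14 other settings. Leaving out MAX restored library 1 or 2 or control 3 took the endosomal count of rises to 2, and leaving out MAX restored library 2 took the secretory count of falls to 2.

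Regulated secretory Rabs made up a larger share of the Rab transcript pool with MAX restored. They held 17.1, 17.3 and 17.1% in MAX restored libraries 1, 2 and 3, against 11.2, 11.3 and 11.2% in controls 1, 2 and 3 of the summed RPKM of all 59 genes. The groups did not overlap, and the shift of 5.93 percentage points was larger than any replicate spread. Rab3a alone accounted for 4.00 of those points, with 5.96 ± 0.180% with MAX restored and 1.95 ± 0.0533% in the controls. The other 7 regulated secretory genes together held 11.2 ± 0.133% with MAX restored and 9.28 ± 0.0665% in the controls, also without overlap. ER and Golgi Rabs held 25.8 ± 0.240% with MAX restored and 27.7 ± 0.482% in the controls, and recycling Rabs 22.7 ± 0.249% with MAX restored and 25.2 ± 0.291% in the controls. All shares have a common total, so a share can be lower without a fall in level when Rab3a holds more of it. Early endosomal Rabs, at 13.99 ± 0.0694% with MAX restored and 14.3 ± 0.384% in the controls, and post-Golgi Rabs, at 9.13 ± 0.172% with MAX restored and 9.08 ± 0.285% in the controls, differed by less than the larger SD. Late endosomal and lysosomal Rabs made up 5.27 ± 0.0597% with MAX restored and 5.58 ± 0.244% in the controls, and the lysosome-related organelle Rabs 0.299 ± 0.0222% with MAX restored and 0.143 ± 0.0307% in the controls (SD, n = 3 each throughout). The summed level of the family was 1778 ± 15.9 RPKM with MAX restored and 1701 ± 34.6 RPKM in the controls.

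**Figure D3:**
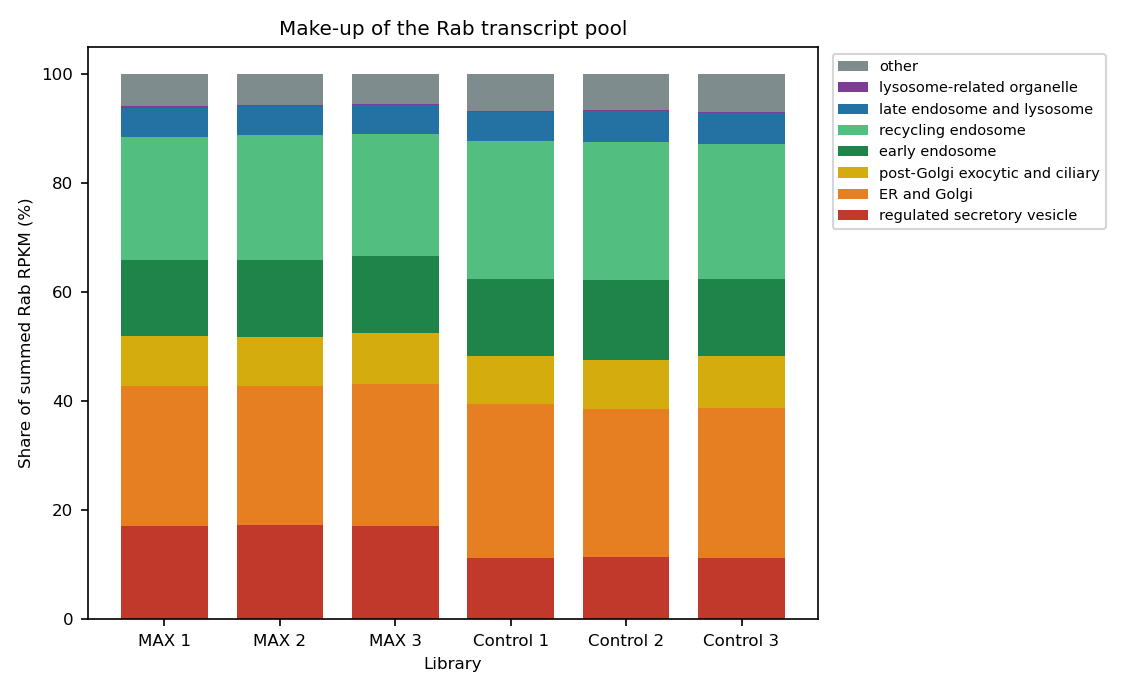
Share of the summed RPKM of all 59 Rab genes (y axis, %) held by each compartment in the 3 MAX restored and the 3 control libraries (x axis). Regulated secretory Rabs, at the foot of each bar, hold 17.1 to 17.3% with MAX restored and 11.2 to 11.3% in the controls.

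The median change of the neighbouring tested genes lay furthest from 0 around Rab9, Rab8a, Rab3a and Rab39. Such medians were not computed for windows elsewhere in the genome, so how unusual these are was not tested. Around Rab3a the 50 nearest tested genes had a median log2 fold change of 0.34, with 32 higher and 9 lower, against 1.67 for Rab3a itself. Around Rab8a, also on chromosome 8 (chr8:74685099-74705265 in mm9), the median was 0.40, with 36 higher and 3 lower, close to the 0.38 of Rab8a. Rab3a and Rab8a lie near each other, so their windows may share genes. Around Rab9, on the X chromosome (chrX:162895184-162917799), the median was -0.65, with 39 lower and 4 higher, beside -0.44 for Rab9. The neighbours of Rab39 stood at -0.30. For the other tested members the median of the neighbours lay between -0.14 and 0.12, among them Rab32 (0.08), Rab36 (0.12), Rab40b (-0.04) and Rab3c (-0.10). The part of the regional shifts in the Rab8a and Rab9 changes was not tested. Besides Rab3a, several members share exonic bases with a gene on the opposite strand, which unstranded counting cannot separate. The overlap covered 9.55% of the exonic length of Rab3b (with 8030443G20Rik, at 0 counts), 9.26% of Rab5a (with Pp2d1, at 0 to 4 counts), 6.23% of Rab22a (with Mir6340, at 0), 3.19% of Rab6a (with Mrpl48), 1.63% of Rab2b (with Tox4) and 0.43% of Rab10 (with Rab10os).

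**Figure D4:**
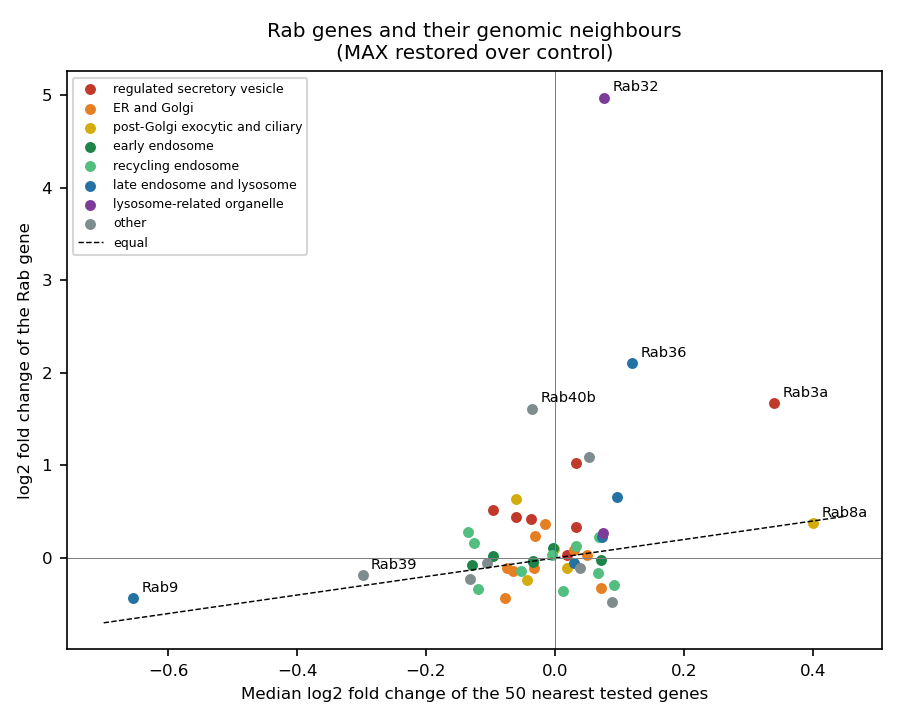
Log2 fold change of each tested Rab gene (y axis) against the median of its 50 nearest tested genes in mm9 order (x axis), coloured by compartment, with a dashed line where both are equal. Rab8a lies on the line at about 0.4 and Rab9 near it, while Rab3a, Rab36, Rab40b and Rab32 lie well above.

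MAX binds DNA with its partners at the E-box CACGTG, a special case of the class CANNTG, so the windows from 250 bases before to 50 after the transcription start were searched for both, on both strands, in RefSeq promoters of the build GRCm38.p6. A window was found for 48 of the 59 Rab genes (60 windows), Rab1 under its name Rab1a, with none used for the other 11. CACGTG was in a window of 6 of the 48 genes (12.5%), and in 8.09% of the 27025 genes with a window. The 6 were Rab5a, Rab20, Rab21, Rab23, Rab24 and Rab27a. Among genes with a window, it was in none of 14 that rose or 10 that fell, and in 5 of 19 that did not pass. Rab20 had no count. For Rab27a only 1 of its 2 windows, the second listed, held it. These sets are small beside a share of 8.09% over all genes with a window. The split by call was not made for all genes, and no difference between the sets was tested. CANNTG was in 68.3% of Rab windows and 72.3% of all windows. A match is only a run of letters in this window and says nothing about binding. The windows of the 4 genes up at least 2-fold that have one are shown for comparison with that of Rab5a, which carries CACGTG at 2 places and whose level hardly moved. For Rab3a it is the first listed of 2 starts. Each runs 5′ to 3′ along the gene's strand with CANNTG in capitals, at chr8:70754453-70754752 (plus), chr6:39381103-39381402 (plus), chr11:121388202-121388501 (minus), chr10:10558158-10558457 (minus) and chr17:53478984-53479283 (plus).
Rab3a: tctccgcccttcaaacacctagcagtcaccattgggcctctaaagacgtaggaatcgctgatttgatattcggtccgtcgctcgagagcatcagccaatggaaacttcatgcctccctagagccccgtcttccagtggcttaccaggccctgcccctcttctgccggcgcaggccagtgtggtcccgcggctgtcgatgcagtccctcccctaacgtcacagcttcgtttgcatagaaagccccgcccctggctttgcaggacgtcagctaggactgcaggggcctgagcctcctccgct
Rab19: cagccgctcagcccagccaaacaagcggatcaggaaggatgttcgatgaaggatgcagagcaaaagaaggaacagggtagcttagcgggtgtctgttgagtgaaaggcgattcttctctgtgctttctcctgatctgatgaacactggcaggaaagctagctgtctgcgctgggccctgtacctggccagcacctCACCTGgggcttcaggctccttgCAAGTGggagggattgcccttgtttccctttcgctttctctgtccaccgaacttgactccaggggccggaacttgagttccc
Rab40b: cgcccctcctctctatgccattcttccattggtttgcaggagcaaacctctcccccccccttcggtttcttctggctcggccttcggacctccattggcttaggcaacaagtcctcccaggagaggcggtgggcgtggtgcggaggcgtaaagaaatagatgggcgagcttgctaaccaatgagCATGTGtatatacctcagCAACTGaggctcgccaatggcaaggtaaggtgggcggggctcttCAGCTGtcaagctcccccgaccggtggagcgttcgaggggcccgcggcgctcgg
Rab32: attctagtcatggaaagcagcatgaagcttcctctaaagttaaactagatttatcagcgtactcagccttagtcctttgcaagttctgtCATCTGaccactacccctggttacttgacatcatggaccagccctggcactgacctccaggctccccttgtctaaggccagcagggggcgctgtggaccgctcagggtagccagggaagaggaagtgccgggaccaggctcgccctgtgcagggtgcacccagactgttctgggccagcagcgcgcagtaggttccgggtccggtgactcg
Rab5a: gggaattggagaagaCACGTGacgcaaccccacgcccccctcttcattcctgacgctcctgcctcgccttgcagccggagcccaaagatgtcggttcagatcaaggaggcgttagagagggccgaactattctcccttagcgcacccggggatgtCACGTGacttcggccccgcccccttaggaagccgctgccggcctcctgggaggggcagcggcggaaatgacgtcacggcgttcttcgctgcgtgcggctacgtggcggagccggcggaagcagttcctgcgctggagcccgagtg
The Rab3a window shown holds no CANNTG, while that of its other start, at chr8:70754852-70755151 (plus), holds 3, none of them CACGTG. The window of Rab19 holds 2, of Rab40b 3 and of Rab32 1, and both in Rab5a are CACGTG.

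Genes whose products act on Rabs were read as lists, with their counts beside the 63.5% of all tested genes that passed. Of 24 tested effectors of secretory Rabs 15 rose and 7 fell (91.7% called, median log2 fold change 0.23). Rims1, a RAB3 effector of the presynaptic active zone, had 13.7, 14.5 and 15.7 CPM with MAX restored, against 5.91, 5.18 and 4.26 CPM in the controls (log2 fold change 1.51, SE 0.13, adjusted p = 5.80e-09). Sytl1, a synaptotagmin-like RAB27 effector, had 48.0, 51.7 and 51.5 CPM with MAX restored, against 30.9, 33.0 and 28.3 CPM in the controls (log2 0.71, SE 0.07). Ehbp1, which links RAB8 and RAB10 to actin, had 83.9, 84.4 and 87.1 CPM with MAX restored, against 63.1, 62.4 and 62.8 CPM in the controls (log2 0.44, SE 0.05). All 3 stood higher in every MAX restored library. Unc13d, which primes granules with RAB27, had 22, 12 and 15 counts with MAX restored, against 4, 6 and 4 counts in the controls (log2 1.66), and Ehbp1l1, a RAB8 effector, had 34, 30 and 33 counts with MAX restored, against 8, 23 and 11 counts in the controls (log2 1.08). These 2 were also higher, at low counts. Unc13d reached the filter's cut of 0.967 CPM in no control, so it was tested only through the group where it is high, and Ehbp1l1 reached it in 2 of 3 controls. Sytl2, another synaptotagmin-like protein that binds RAB27, went the other way with 1, 0 and 0 counts with MAX restored, against 16, 13 and 22 counts in the controls. Its ratio of 1 to 51 summed counts was 0.0180 (95% exact binomial interval, counting error only, 0.000448 to 0.105). It reached the cut in no MAX restored library and was tested only through the controls. The list's counts of 15 and 7 include Unc13d and Sytl2, whose entry into the test fixed their direction.

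Endosomal effectors split 6 to 6 of 21 tested (57.1% called, median -0.01). Rab11fip4, which binds RAB11, had 26.5, 32.6 and 24.7 CPM with MAX restored, against 8.57, 8.34 and 7.33 CPM in the controls (log2 fold change 1.79, SE 0.12, adjusted p = 9.95e-11). Appl2, a RAB5 effector, had 277, 276 and 287 CPM with MAX restored, against 189, 189 and 187 CPM in the controls (log2 0.57, SE 0.04). Its relative Appl1 moved the other way, with 80.2, 76.6 and 86.7 CPM with MAX restored, against 109, 104 and 106 CPM in the controls (log2 -0.39, SE 0.05). None of these groups overlapped. The lysosomal list, which also holds genes for the biogenesis of lysosome-related organelles, had 10 higher and 8 lower of 32 (56.2% called, median 0.00). Lrrk2, a kinase that phosphorylates several Rabs, had 54.5, 51.02 and 56.3 CPM with MAX restored, against 24.7, 25.6 and 25.9 CPM in the controls (log2 fold change 1.09, SE 0.06, adjusted p = 1.73e-11). Rilpl1, which binds phosphorylated RAB8 and RAB10, had 12.5, 13.5 and 14.5 CPM with MAX restored, against 5.61, 6.999 and 6.64 CPM in the controls (log2 1.07, SE 0.12). The rises were 2.12-fold for Lrrk2 and 2.09-fold for Rilpl1. Hps3, a subunit of a complex needed for lysosome-related organelles, had 16.7, 15.3 and 16.7 CPM with MAX restored, against 31.9, 30.0 and 27.3 CPM in the controls (log2 -0.87, SE 0.09).

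Of the shared machinery, 4 genes rose and 6 fell among 14 of the membrane cycle (71.4% called, median -0.11). Chml, an escort protein that presents new Rabs for lipid attachment, had 341, 329 and 356 CPM with MAX restored, against 116, 94.6 and 99.1 CPM in the controls, a 3.31-fold rise (log2 fold change 1.73, SE 0.06, adjusted p = 4.04e-15). Rabac1, a membrane protein that binds prenylated Rabs, had 111, 118 and 111 CPM with MAX restored, against 143, 153 and 163 CPM in the controls, and fell (log2 -0.43, SE 0.05). Chml was the 1 gene of this list to change at least 2-fold.

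Exchange factors were higher in 14 and lower in 12 of 40 (65.0% called, median 0.02). Dennd4a, Dennd5b and Dennd2d, all with the DENN domain that loads GTP, were the 3 with the smallest p, and all fell. Dennd4a had 83.8, 85.1 and 87.7 CPM with MAX restored, against 121, 127 and 131 CPM in the controls (log2 -0.56, SE 0.05). Dennd5b had 55.5, 58.6 and 55.0 CPM with MAX restored, against 86.1, 81.0 and 85.7 CPM in the controls (log2 -0.58, SE 0.05). Dennd2d had 20.2, 20.3 and 19.4 CPM with MAX restored, against 36.8, 34.8 and 41.2 CPM in the controls (log2 -0.91, SE 0.08). Rab3il1, an exchange factor for RAB3A and RAB8, was scarce and rose, with 29, 27 and 27 counts with MAX restored, against 9, 12 and 9 counts in the controls (log2 1.34). It reached the filter's cut in 1 of 3 controls, so it passed the filter through the MAX restored libraries. GTPase-activating proteins had 8 higher and 8 lower of 35 (45.7% called, median 0.02). Tbc1d9 had 199, 212 and 207 CPM with MAX restored, against 103, 109 and 108 CPM in the controls (log2 0.95, SE 0.05). Tbc1d15 and Tbc1d5, both known as regulators of RAB7, were lower. Tbc1d15 had 74.9, 68.3 and 72.5 CPM with MAX restored, against 97.8, 94.7 and 94.1 CPM in the controls (log2 -0.41, SE 0.05). Tbc1d5 had 34.2, 33.9 and 35.8 CPM with MAX restored, against 47.0, 47.6 and 51.4 CPM in the controls (log2 -0.49, SE 0.06).

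**Figure D5:**
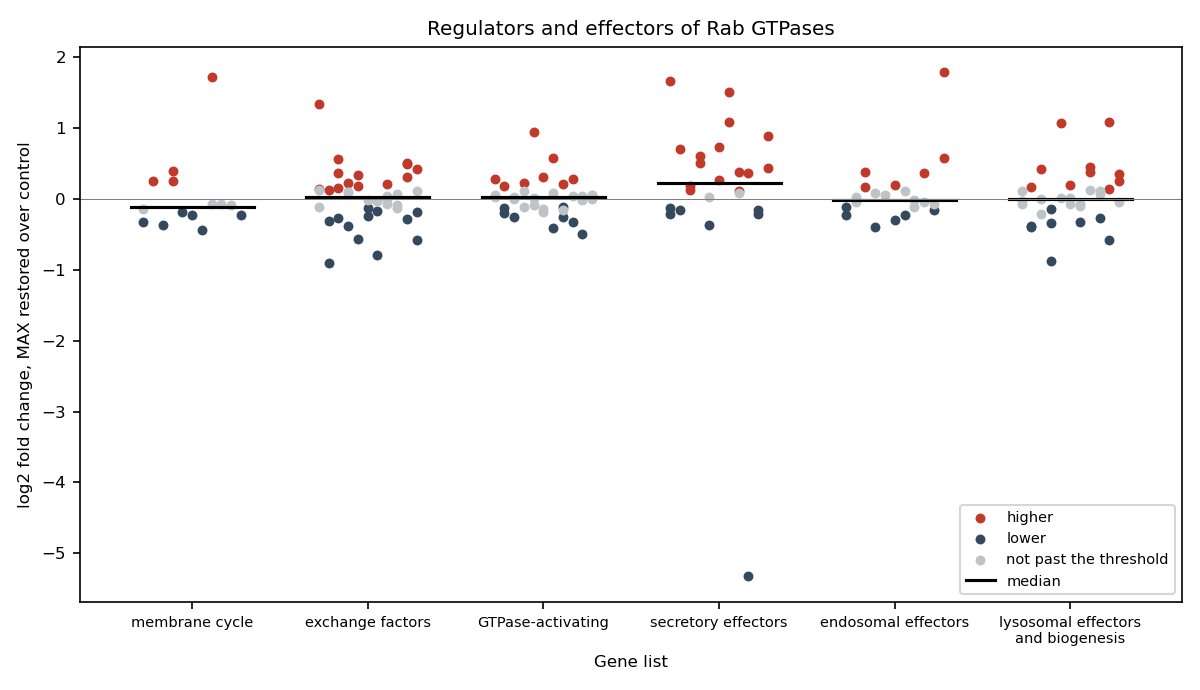
Log2 fold change of MAX restored over control (y axis) for tested genes of 6 lists of Rab regulators and effectors (x axis), 1 point per gene, red for higher, dark for lower and grey for not past the threshold, with the list's median as a bar. Secretory effectors have the highest median, 0.23, and the single point at -5.33 is the fitted value of Sytl2, which was tested only through the controls.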

How the data were processed

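Each of the 6 deposited files holds unnormalized read counts for 1 library, which the authors made with featureCounts 1.6.0 without strand over exons of the UCSC mm9 annotation, per the file headers; the submitters' processing notes also name bcl2fastq 1.8.4 and STAR 2.5.2a. No header option keeps multi-mapping reads. Genes were kept by filterByExpr (minimum count 10), which left 12664 of 24391. Library sizes were scaled by TMM, and counts were tested with the quasi-likelihood fit of edgeR 4.0.16 (R 4.3.3), with group as the only term. Two-sided p-values were adjusted by Benjamini and Hochberg's method over every gene tested, and an adjusted p under 0.05 was called. Each SE equals the size of the log2 fold change divided by the root of its F. CPM uses TMM-scaled library sizes, and RPKM divides it by the exon length in the files. Alternatives were other scalings and filters, DESeq2 1.42.0, limma voom (3.58.1), the replicate number as a block, leaving out each library, and other class borders. The fit was tested on simulated counts. Genes given with values were the 2-fold changes, the 3 smallest p of each compartment and a fixed set of secretory and lysosome-related members; others were named after their values were seen. Members, classes and lists were chosen with earlier results of these data known. Coordinates are mm9, except the promoter windows (RefSeq, GRCm38.p6). Some genes that the rule would name are not reported here. List symbols were matched through RefSeq synonyms where the files use another name.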

Additional observations from a re-analysis of the deposited data

How the results depend on the processing

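Of the 51 tested Rab genes 39 kept the same call under all 14 other settings and none changed direction with a call; the 12 that crossed the threshold were Rab1, Rab2a, Rab5c, Rab6a, Rab7b, Rab11a, Rab11b, Rab12, Rab15, Rab23, Rab39b and Rab40c. The count of Rab genes ran from 16 to 20 higher and from 7 to 11 lower. When 1 library was left out, the endosomal count of rises ran from 2 to 5 and the secretory count of falls from 2 to 5; with DESeq2 the endosomal count of rises was 2, and the cause was not tested. Counting late endosomal and lysosomal Rabs as endosomal left the lysosome-related class with 1 higher and 0 lower, since it then holds 2 tested genes. That 1 is Rab32, which was tested only through the MAX restored libraries. Counting Rab27a and Rab27b as lysosome-related gave 4 higher there and 9 in the secretory class. With the replicate number as a block 19 Rab genes were higher and 11 lower; the numbers are shared labels only, as same-numbered libraries deviated from their group means with correlations of 0.0035, 0.035 and -0.024. Scaling moved the median of all genes by at most 0.026 on the log2 scale. The 8 untested genes ran from no count (Rab9b and Rab20) to 23 against 15 summed counts (Rab33a). For Rab9b, Rab20, Rab42, Rab44 and Rab6b absence and too little depth cannot be told apart. Rab26, Rab33a and Rab38 had counts in both groups, but too few for a test.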
